A study of Mus musculus with 13 samples.

Results

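Baiap2, Baiap2l1, Baiap2l2 and Mtss1 encode I-BAR proteins, and they are 4 of the 52636 genes measured in resident myeloid cells sorted from brains of PS2APP mice. They were chosen by family and by the count and nRPKM differences between genotypes in these same data, in which Baiap2l2 was known to be low without Trem2, so differences between genotypes in these 4 genes are given as a description, with no test. All 4 were found by Ensembl identifier and all 4 passed the filter on low counts. Mtss2 (listed as Mtss1l, ENSMUSG00000033763), which encodes the remaining I-BAR protein, was measured beside them.

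Both groups were homozygous for the PS2APP transgene, which carries human mutant presenilin 2 and amyloid precursor protein and leads to β-amyloid plaques in the brain, and mice of both groups were 14 to 15 months old. The 7 PS2APP;Trem2wt mice (5 females and 2 males) had intact Trem2. The 6 PS2APP;Trem2ko mice (5 females and 1 male) carried the null allele Trem2tm1(KOMP)Vlcg, which was made on a C57BL/6N background and crossed into PS2APP mice on C57BL/6J. Trem2 is missing from every cell of these animals and not from myeloid cells alone, and mice without the PS2APP transgene were not analysed here. Live cells positive for CD11b and CD45 and negative for Ly6g and Ccr2 were sorted by FACS from cortex and hippocampus of single mice, so each mouse is 1 replicate. In such bulk samples, fewer cells of a type and less RNA per cell cannot be told apart.

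I-BAR domains are rigid, curved helical bundles that bind membranes rich in phosphoinositides on their convex side, and they bend the membrane outward, toward the extracellular space. Most BAR proteins curve membranes the other way, into endocytic pits and tubules. IRSp53, the product of Baiap2, joins this domain to a site for the GTP-bound form of Cdc42 and to an SH3 domain that gathers actin regulators such as WAVE2, Eps8, Mena and formins, and in this way it takes part in building filopodia and lamellipodia. IRTKS, the product of Baiap2l1, has a similar layout. Pinkbar, the product of Baiap2l2, is known from intestinal and kidney epithelium, where it favours flat membrane sheets, and from the stereocilia of hair cells. Mtss1 encodes MIM (missing in metastasis) and Mtss2 encodes ABBA, and both carry an actin-binding WH2 motif in place of the SH3 domain. Microglia use filopodia and larger processes to survey tissue and to surround plaques.

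Total counts on genes ranged from 26120961 to 114857155 in PS2APP;Trem2wt mice and from 41567025 to 120569609 in PS2APP;Trem2ko mice. Trem2, the targeted gene, had an nRPKM (RPKM, read density per length and depth, adjusted by a size factor) of 1044 ± 141 (SD, n = 7) in PS2APP;Trem2wt mice and 0.887 ± 0.734 (SD, n = 6) in PS2APP;Trem2ko mice. The 8 microglia markers summed to an nRPKM of 12008 to 14710 and of 12465 to 14053 in these groups. Neuron markers summed to 4.19 to 13.4 and to 4.51 to 13.1, astrocyte markers to 9.85 to 23.7 and to 11 to 17.9, and endothelial markers to 7.83 to 17.7 and to 9.3 to 14.4. Oligodendrocyte markers summed to 24.5 to 38.8 and to 22.6 to 33.6. Perivascular macrophage markers summed to 9.23 to 29.2 and to 16 to 41.2, and monocyte and neutrophil markers to 6.85 to 126 and to 2.61 to 29.1. Among all these markers and those of epithelium, only Cx3cr1, a microglial receptor for fractalkine, changed between genotypes (edgeR quasi-likelihood test, log2 fold change -0.49, SE 0.09, adjusted p = 0.0067), and voom+limma and DESeq2 also called no other.

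Baiap2l2 was the I-BAR gene that set the genotypes apart. The gene (ENSMUSG00000018126) lies on the minus strand of chromosome 15 in GRCm38, from 79258195 to 79285537, with 2728 exonic bases in the GENCODE M21 annotation, and it overlaps no other gene. Its nRPKM was lowest at 4.08, had a median of 5.05 and was highest at 8.03 over the 7 PS2APP;Trem2wt mice. In the 6 PS2APP;Trem2ko mice it was lowest at 0.968, had a median of 1.33 and was highest at 1.88. The groups did not overlap, since all 6 PS2APP;Trem2ko mice lay below every PS2APP;Trem2wt mouse. The means were 5.48 ± 1.29 (SD, n = 7) and 1.39 ± 0.322 (SD, n = 6), and the log2 fold change on counts was -1.98 (SE 0.17), 3.94-fold lower without Trem2. By that fold change it was number 72 from the lowest among the 17086 genes that passed the filter. These values rest on 429 to 2022 reads per PS2APP;Trem2wt mouse and on 151 to 816 reads per PS2APP;Trem2ko mouse. Counting error alone gave a coefficient of variation of at most 8.14% in the knockout mice, against the 23.2% observed between them.

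**Figure D1:**
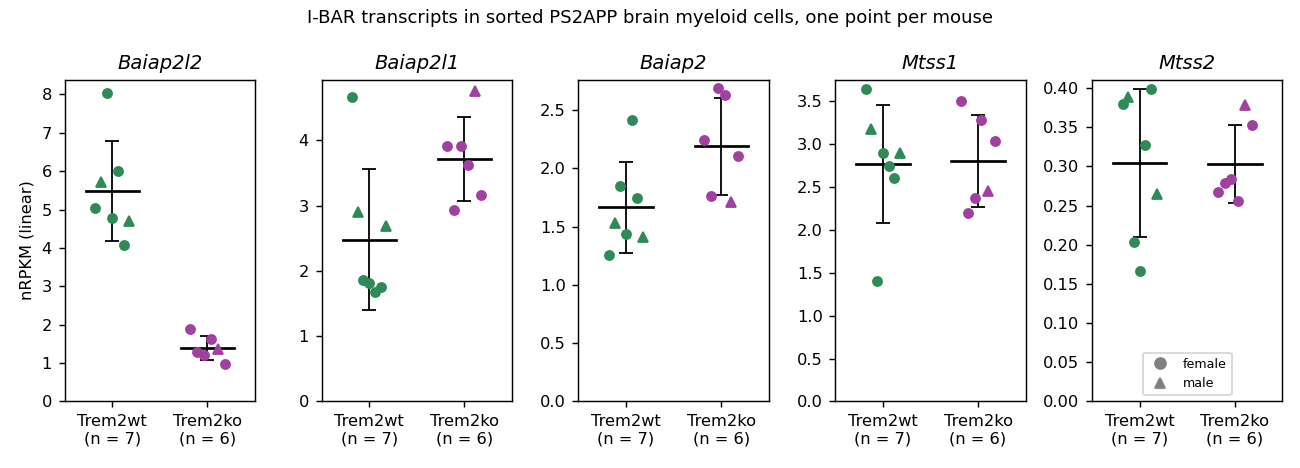
nRPKM (linear axes from 0, a separate scale per panel) of the 5 I-BAR genes, with 1 point per mouse, circles for females, triangles for males, and a black line and bar for the mean ± SD of 7 PS2APP;Trem2wt and 6 PS2APP;Trem2ko mice. Baiap2l2 separates the genotypes completely (4.08 to 8.03 against 0.968 to 1.88), Baiap2l1 overlaps through a single PS2APP;Trem2wt mouse at 4.67, and Mtss1 and Mtss2 have nearly the same mean in both.

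Since Pinkbar is known as an epithelial protein, 6 epithelial genes were measured in the same libraries. Cldn4, which encodes a claudin of epithelial tight junctions, had 0 counts in 12 of the 13 mice and at most 1 count in the other. The keratin gene Krt8 had 0 counts in 10 mice and at most 2 counts. Krt18, another keratin gene, had 0 counts in 9 mice and at most 9 counts. The adhesion gene Epcam reached an nRPKM of 0.296 in PS2APP;Trem2wt and 0.131 in PS2APP;Trem2ko mice. Cdh1, another adhesion gene, had the highest mean level of the list, with up to 178 counts and 0 counts in 2 mice. It reached an nRPKM of 0.357 in PS2APP;Trem2wt and 0.671 in PS2APP;Trem2ko mice, with a log2 fold change of 1.19 (edgeR, SE 0.99, adjusted p = 0.63). Ttr, a marker of choroid plexus, was at 0 in 8 mice and reached 0.314 and 0.246. Over the whole list the summed nRPKM was 0 to 0.639 in PS2APP;Trem2wt and 0.146 to 0.779 in PS2APP;Trem2ko mice, below the level of Baiap2l2 itself in every mouse.

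Baiap2l1 stood on the other side. This gene (ENSMUSG00000038859) spans 144264526 to 144358112 on the minus strand of chromosome 5, with 3366 exonic bases. Its nRPKM was lowest at 1.68, had a median of 1.86 and was highest at 4.67 in PS2APP;Trem2wt mice, and was lowest at 2.93, had a median of 3.76 and was highest at 4.76 in PS2APP;Trem2ko mice. Group means of 2.48 ± 1.08 (SD, n = 7) and 3.72 ± 0.648 (SD, n = 6) stood 0.58 apart on the log2 scale of counts (SE 0.22), 1.5-fold higher without Trem2. The overlap came from PS2APP;Trem2wt mouse 1, a female at 4.67, while the other 6 mice of that group lay between 1.68 and 2.9. Without that mouse the PS2APP;Trem2wt mean was 2.12 ± 0.535 (SD, n = 6), the log2 fold change was 0.81 (SE 0.16), 1.75-fold, and all 6 knockout mice lay above the PS2APP;Trem2wt group. That separation is narrow (2.9 against 2.93) and follows from leaving out a mouse picked for its value, so nothing is read from it. The share of all genes without overlap in that set of mice was not counted.

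Baiap2l1 is also the one member that shares exons with other genes, on the opposite strand. Bri3, Gm15708 and Dmrt1i overlap 205 of its exonic bases (49, 34 and 122), and the library kit does not mark the strand of a read. Dmrt1i, which covers the start of Baiap2l1, had 0 counts in every mouse. Bri3 had 81 to 654 counts per mouse and a log2 fold change of 0.41 (adjusted p = 0.271, SE 0.17). Gm15708 had 88 to 1210 counts and a log2 fold change of 0.50 (adjusted p = 0.202, SE 0.18). Neither passed the edgeR test, and the part of their reads in the level of Baiap2l1 was not tested. In PS2APP;Trem2wt mouse 1, Bri3 was at an nRPKM of 3.17, the highest of its group, and Gm15708 was at 2.03, within the range of its group (1.3 to 2.69).

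The RefSeq promoter table for GRCm38.p6 held entries for 2 of the 4 members, Baiap2 and Baiap2l1. The stretch just before the start of Baiap2l1 is shown because the opposite-strand gene Dmrt1i (chromosome 5, 144357923 to 144361048) covers all of it. It holds 250 bases at chr5:144358113-144358362, given 5′ to 3′ on the minus strand of Baiap2l1, with the letters CCGCCC in capitals (the complement of the GC box GGGCGG).
Baiap2l1: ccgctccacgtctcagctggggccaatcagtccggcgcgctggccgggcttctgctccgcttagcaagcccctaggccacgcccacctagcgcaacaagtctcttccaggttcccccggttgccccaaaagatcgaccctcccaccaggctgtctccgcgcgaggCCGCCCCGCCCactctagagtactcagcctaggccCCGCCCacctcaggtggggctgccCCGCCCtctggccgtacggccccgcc
The stretch has 21 CpG dinucleotides and 70.4% GC, against a median of 6 and of 52.4% over all 32851 promoters of that length in the table. Searched on both strands, GGGCGG or its complement occurred 4 times, and 32.7% of all promoters hold at least 1 copy. TATAAA did not occur in it, and 12.4% of all promoters hold that word. The same stretch before Baiap2 holds GGGCGG or its complement 5 times and TATAAA 1 time. Both words were chosen after the letters were seen. A planned search of the promoters of Baiap2 and Baiap2l1, 300 bases each on both strands, found neither the E-box CACGTG (in 7.15% of all promoters) nor the AP-1 word TGACTCA (in 5.2%). It also found neither of the ETS-type words GAGGAA (in 28.3%) and GGAAGT (in 23.8%). Mtss2 has 2 entries in the table, and 1 of them holds CACGTG 1 time and none of the other planned words.

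Baiap2, the gene for IRSp53 (ENSMUSG00000025372, chromosome 11, 119942763 to 120006782, plus strand), was slightly higher without Trem2. Its nRPKM was lowest at 1.26, had a median of 1.53 and was highest at 2.42 in PS2APP;Trem2wt mice, and was lowest at 1.71, had a median of 2.17 and was highest at 2.69 in PS2APP;Trem2ko mice. The groups overlapped, since 2 of the knockout mice were higher than any PS2APP;Trem2wt mouse. The means of 1.67 ± 0.39 (SD, n = 7) and 2.19 ± 0.418 (SD, n = 6) were 0.39 apart on the log2 scale of counts (SE 0.16), 1.31-fold.

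Mtss1, the gene for MIM (ENSMUSG00000022353, chromosome 15, 58941234 to 59082005, minus strand), had means that differed by far less than the spread between mice. Its nRPKM was 2.77 ± 0.688 (SD, n = 7; lowest 1.41, median 2.9, highest 3.64) in PS2APP;Trem2wt mice. In PS2APP;Trem2ko mice it was 2.81 ± 0.537 (SD, n = 6; lowest 2.2, median 2.74, highest 3.5), and the log2 fold change was 0.02 (SE 0.18). The lowest value belonged to PS2APP;Trem2wt mouse 3, the same female that had the highest Baiap2l2, and without it the PS2APP;Trem2wt range was 2.6 to 3.64 and the log2 fold change -0.10 (SE 0.13). Although Mtss1 and Baiap2l2 lie on the same chromosome, they are far apart and their log2 fold changes of 0.02 and -1.98 differ. Mtss2, the gene for ABBA, had the lowest nRPKM of the family, 0.304 ± 0.0938 with Trem2 (SD, n = 7) and 0.303 ± 0.0503 without (SD, n = 6), with a log2 fold change of -0.00 (adjusted p = 0.997, SE 0.22).

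With an adjusted p of 0.05 or less as the call rule, Baiap2l2 was among the genes called lower and the other 3 members were called in neither direction, where the rule calls 1.53% of all genes tested lower and 0.503% higher. With a change of at least 2-fold added to the rule, Baiap2l2 was again the member called, and the background is 0.691% lower and 0.0527% higher. For values without overlap between genotypes the background is 1.22% lower and 0.421% higher, and the member without overlap is again Baiap2l2. Because these contrasts chose the family, the result for Baiap2l2 was known in advance and these calls are a description, not a test. Nothing further is read from these counts.

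The order of the family within each mouse, on the nRPKM scale that corrects for gene length, differed between the genotypes. Baiap2l2 had the highest level of the 5 genes in 7 of 7 PS2APP;Trem2wt mice. In 6 of 6 PS2APP;Trem2ko mice Baiap2l1 had the highest level and Baiap2l2 was above Mtss2 alone. Baiap2l2 made up 43.1% ± 8.37 (SD, n = 7) of the summed nRPKM of the 5 genes with Trem2 and 13.3% ± 2.31 (SD, n = 6) without it. The share of Baiap2l1 was 19.2% ± 6.38 and 35.7% ± 4.81, that of Baiap2 13.3% ± 3.37 and 21.1% ± 3.37, and that of Mtss1 22.0% ± 5.27 and 26.9% ± 3.64 (SD over the same mice). Shares are parts of a whole, so a lower share of Baiap2l2 by itself raises the others. The mean nRPKM of Mtss1 was 2.77 with Trem2 and 2.81 without it. The summed nRPKM differed less, at 12.7 ± 1.55 (range 10.6 to 15.0) and 10.4 ± 1.21 (range 8.48 to 11.8), and its ranges overlapped. The ratio of Baiap2l2 to Baiap2l1 lay between 1.08 and 4.32 in PS2APP;Trem2wt mice and between 0.285 and 0.48 in PS2APP;Trem2ko mice. In PS2APP;Trem2wt mice the neighbours in this order did not separate below Baiap2l2, since Mtss1 was above Baiap2l1 in all but 2 of the 7 mice and Baiap2 was above Baiap2l1 in 2. In PS2APP;Trem2ko mice Baiap2l1 was above Mtss1 in 6 of 6 and Baiap2 was above Mtss1 in 1 of 6.

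**Figure D2:**
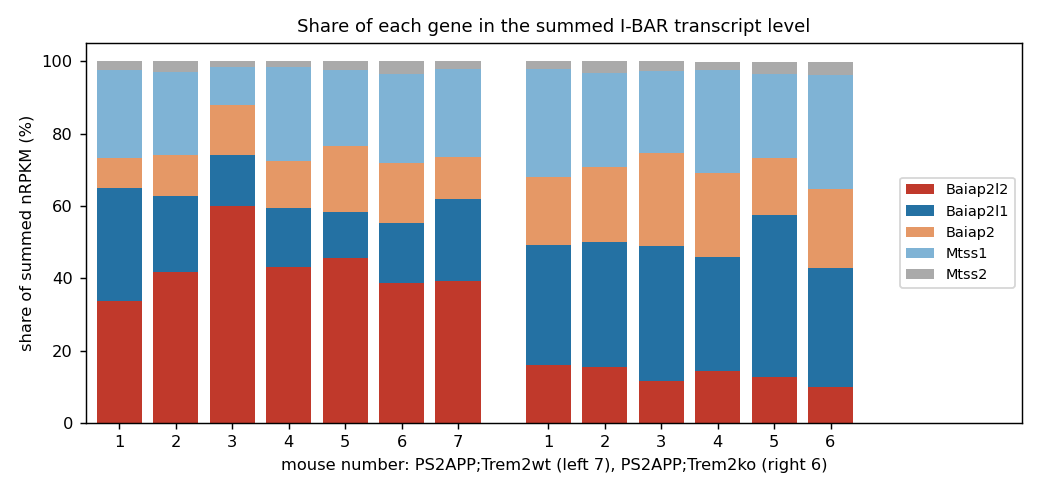
Share (%) of each I-BAR gene in the summed nRPKM of the family, with 1 stacked bar per mouse, 7 PS2APP;Trem2wt mice at the left and 6 PS2APP;Trem2ko mice at the right. Baiap2l2 takes 33.7% to 60.1% of each bar at the left and 10% to 15.9% of each bar at the right.

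Within a genotype the members varied from mouse to mouse about as much as other genes or somewhat more. The SD of log2 CPM after removal of the genotype means was 0.30 for Baiap2, 0.43 for Baiap2l1, 0.32 for Baiap2l2 and 0.37 for Mtss1, and the median over all genes tested was 0.28. These deviations did not run together in the family. Over 13 mice, with every gene read from the same libraries, Pearson's r of the deviations was -0.54 between Baiap2 and Baiap2l1, 0.46 between Baiap2l1 and Mtss1, and 0.30 between Baiap2 and Baiap2l2. It was -0.01 between Baiap2l1 and Baiap2l2, -0.28 between Baiap2l2 and Mtss1 and -0.19 between Baiap2 and Mtss1. The r of Baiap2l2 with Mtss1 was -0.70 in the 7 PS2APP;Trem2wt mice and 0.45 in the 6 PS2APP;Trem2ko mice, and PS2APP;Trem2wt mouse 3 is at an extreme of both genes. In the same groups the r of Baiap2 with Baiap2l1 was -0.74 and -0.02, and that of Baiap2l1 with Mtss1 was 0.56 and 0.02. PS2APP;Trem2wt mouse 1 is at an extreme of its group in Baiap2, Baiap2l1 and Mtss1.

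Sex had no part in the choice of the genes and was therefore tested, on counts, with genotype in the model. None of the 4 members differed between 10 females and 3 males with edgeR (the lowest adjusted p was 0.787), where 0.0234% of all genes were called. At an unadjusted p of 0.05 the count was 0 of 4 with edgeR, 0 with DESeq2 and 1 with voom+limma, where edgeR has 1187 of all 17086 genes at that level. Without PS2APP;Trem2wt mouse 1 the edgeR count was 2 of 4, and none passed after adjustment. That mouse was picked for its Baiap2l1 value, so nothing is read from this count. The share of all genes at the unadjusted level was not counted in that fit, nor with voom+limma or DESeq2. The log2 difference, female minus male, was 0.31 (SE 0.18, adjusted p = 0.787) for Baiap2 and -0.33 (SE 0.25, adjusted p = 0.814) for Baiap2l1. It was 0.08 (SE 0.2, adjusted p = 0.952) for Baiap2l2 and -0.05 (SE 0.22, adjusted p = 0.973) for Mtss1. Only 1 of the 3 males was a PS2APP;Trem2ko mouse.

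Genes beside Baiap2l2 on chromosome 15 had smaller log2 differences than Baiap2l2 itself. Pla2g6, a phospholipase gene whose end lies 691 bases away, was at an nRPKM of 2.84 ± 0.683 and 2.7 ± 0.48, with a log2 fold change of -0.08 (adjusted p = 0.87, SE 0.16). Slc16a8, a monocarboxylate transporter gene 3434 bases away on the other side, was at 0.849 ± 0.527 and 0.586 ± 0.2, with a log2 fold change of -0.54 (adjusted p = 0.499, SE 0.34). Pick1, itself a BAR-domain gene, lies 8711 bases away and had a log2 fold change of 0.12 (adjusted p = 0.717, SE 0.13). Maff, a small Maf transcription factor gene 61084 bases away, was at 0.644 ± 0.24 and 0.291 ± 0.11 (SD, n = 7 and 6), with a log2 fold change of -1.15 (adjusted p = 0.0753, SE 0.31). It missed the threshold with edgeR and passed it with voom+limma and with DESeq2. Tmem184b, 75147 bases away, was at 40.1 ± 9.3 and 30.6 ± 2.93, with a log2 fold change of -0.40 (adjusted p = 0.169, SE 0.14). Of 25 tested genes within 100 kb of an I-BAR gene (at most the 6 nearest per gene), edgeR called 0, where it called 2.04% of all genes. It had 5 of the 25 at an unadjusted p of 0.05, and the share of all genes at that level was not counted. With voom+limma and with DESeq2, 1 was called, which was Maff.

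**Figure D3:**
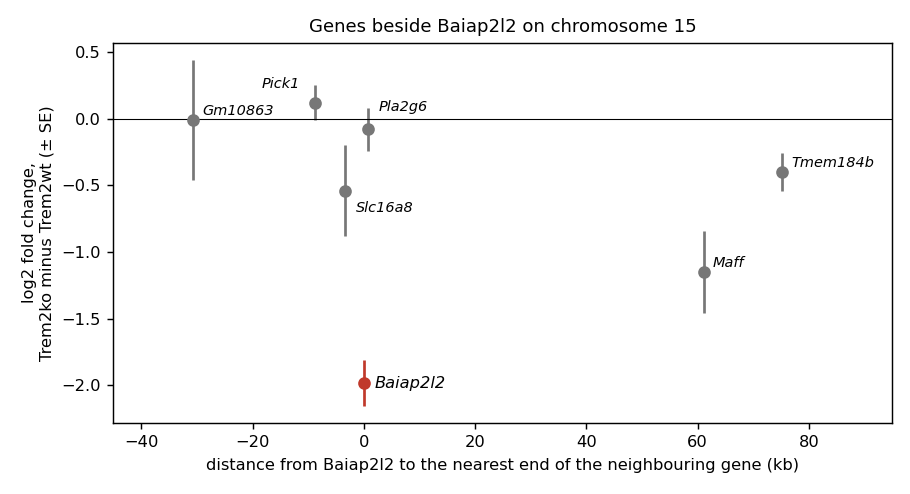
edgeR log2 fold change (PS2APP;Trem2ko minus PS2APP;Trem2wt, ± SE) of Baiap2l2 (red) and of its 6 nearest tested neighbours (grey) against their distance in kb, negative toward the lower coordinates. The nearest genes, Pla2g6, Slc16a8 and Pick1, lie at -0.08, -0.54 and 0.12 while Baiap2l2 lies at -1.98.

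Mtss2, the partners through which I-BAR proteins reach actin, and the other BAR-domain families were then counted in the same genotype fit. They make up 8 lists of 131 genes, of which 126 were tested, and 1 of the lists is counted here without its genes being described. edgeR called 7 lower and 0 higher in PS2APP;Trem2ko mice, 5.56% of those tested, where the call rule reaches 2.04% of all genes. The lists were written with earlier results of these data known, so nothing is read from this difference in shares. At an unadjusted p of 0.05 edgeR had 15 lower and 11 higher, voom+limma 18 and 11, and DESeq2 16 and 12. After adjustment voom+limma called 7 lower and 0 higher, and DESeq2 called 9 lower and 3 higher. The share of all genes at that unadjusted level was not counted. With a mouse left out, 4 to 5 genes were called lower, and it was 4 without PS2APP;Trem2wt mouse 3 or 5 or without PS2APP;Trem2ko mouse 1, 2, 3 or 6. Without PS2APP;Trem2wt mouse 7, 1 gene was called higher. The median log2 fold change was -0.03 over these 126 genes and 0.00 over all genes.

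In the WAVE regulatory complex, 1 of 11 genes fell, with a median log2 fold change of -0.07. Abi2, an adaptor subunit of the complex, went from 6.09 ± 0.525 (lowest 5.39, median 6.19, highest 6.91) to 4.46 ± 0.551 (lowest 3.51, median 4.46, highest 5.16), a log2 fold change of -0.45 (adjusted p = 0.0117, SE 0.09). Its groups did not overlap, and the call stood in all 13 fits that left out a mouse but not in females only (adjusted p = 0.0571).

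In the Arp2/3 complex, which nucleates branched actin, 1 of 10 genes fell, with a median log2 fold change of -0.09. All 10 log2 fold changes were negative, where 49.3% of those of all genes tested were. The 10 genes were read from the same libraries and the list was written with earlier results known, so nothing is read from this count. The gene that fell was Actr3b, a variant of the Arp3 subunit, from 7.67 ± 3.49 (lowest 5.49, median 6.57, highest 15.5) to 2.5 ± 0.799 (lowest 1.77, median 2.15, highest 3.59), 3.09-fold (log2 fold change -1.63, SE 0.25, adjusted p = 0.00237). No PS2APP;Trem2ko mouse reached the range of the other group.

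No gene of the WASP family and WIP list passed the test (0 of 7 with edgeR, voom+limma and DESeq2, and 2 at an unadjusted p of 0.05 with edgeR), and the median log2 fold change was 0.16. Was, the WASP gene of blood cells, was at 10.7 ± 1.3 and 10.2 ± 1.18, and Wipf1, its stabilising partner, at 8.05 ± 0.802 and 8.44 ± 0.981. Among Ena/VASP proteins, formins and filopodial proteins the edgeR count was 0 of 15, with 4 at an unadjusted p of 0.05, and DESeq2 called 2 lower. The median was -0.10. The formin gene Fmnl3 was at 99.2 ± 7.29 and 92.7 ± 11.9, and the bundling protein gene Fscn1 at 96.1 ± 16.4 and 74.8 ± 21.1 (adjusted p = 0.3).

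Of the F-BAR genes, 2 of 22 fell, and the median log2 fold change was 0.08. Pacsin1, which encodes a syndapin known mainly from neurons that links endocytosis to actin, went from 2.94 ± 0.744 (lowest 2.14, median 2.71, highest 4.42) to 0.936 ± 0.242 (lowest 0.628, median 0.954, highest 1.25), 3.15-fold (log2 fold change -1.65, SE 0.19, adjusted p = 0.00014). Gas7, a growth arrest gene also known from neurons, went from 0.942 ± 0.365 (lowest 0.64, median 0.847, highest 1.67) to 0.233 ± 0.091 (lowest 0.142, median 0.212, highest 0.38), 4.07-fold (log2 fold change -2.03, SE 0.27, adjusted p = 0.000727). Both separated the genotypes completely and kept the call in all 13 fits that left out a mouse. None of the 8 neuron markers changed with edgeR, voom+limma or DESeq2, also at an unadjusted p of 0.05. The summed level of these markers ranged as given above, and the part of RNA from other cells in either gene was not tested.

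Of the N-BAR and other BAR genes, 2 of 40 fell, and the median was 0.04. Arhgap26, the GRAF gene, went from 1.31 ± 0.428 to 0.753 ± 0.143 (log2 fold change -0.81, SE 0.19, adjusted p = 0.0381), with 5 of 6 PS2APP;Trem2ko mice below every PS2APP;Trem2wt mouse. Snx18, a sorting nexin gene, went from 70.3 ± 16.5 to 46.6 ± 5.11 (log2 fold change -0.59, SE 0.14, adjusted p = 0.0401), with 4 of 6 below. The calls of Arhgap26 and Snx18 stood in 3 and 4 of the 13 fits that left out a mouse. Scaling by RLE in place of TMM moved none of the list medians given here.

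**Figure D4:**
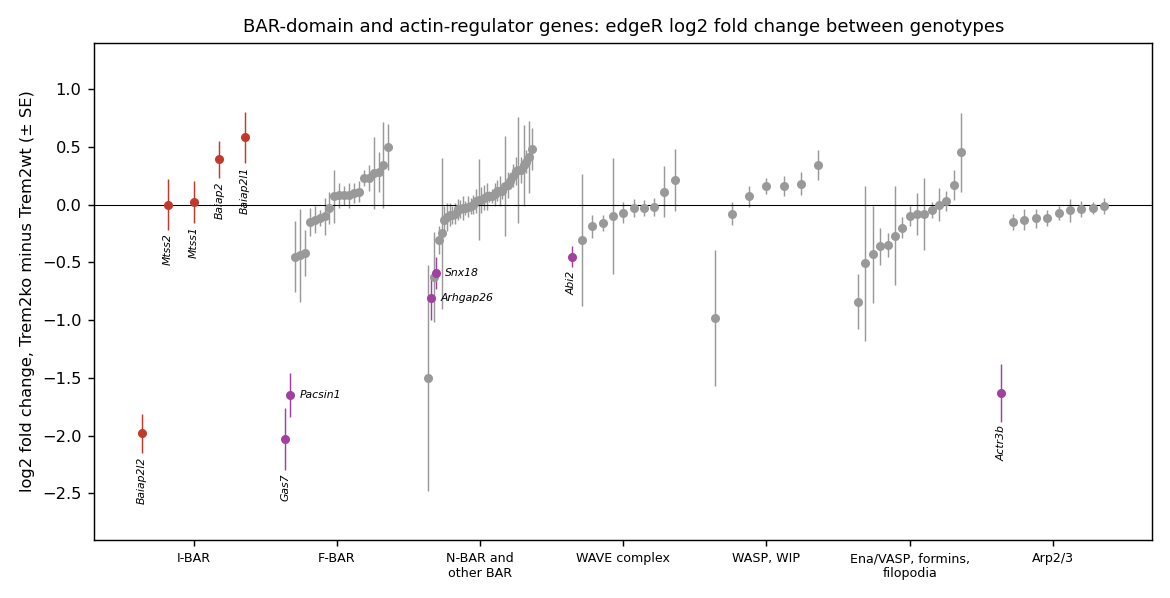
edgeR log2 fold change (PS2APP;Trem2ko minus PS2APP;Trem2wt, ± SE) of the I-BAR genes (red, shown without a test) and of 6 lists of BAR-domain and actin-regulator genes (grey, purple where the adjusted p is 0.05 or less), sorted within each list. Most genes lie near 0, and Baiap2l2 (-1.98) lies at about the level of Gas7 (-2.03), Pacsin1 (-1.65) and Actr3b (-1.63).

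To see which transcripts varied with Baiap2l2 from mouse to mouse apart from genotype, its log2 CPM was correlated with that of every gene tested after the mean of each genotype was removed. The 5 genes most like it over 13 mice were Olfr110 (r = 0.88), Zfp85 (0.87), Cep63 (0.87), Rilp (0.84) and Pdcd1 (0.84), where the median over all genes was 0.00 and the 5th to 95th percentiles were -0.48 and 0.49. Of these 5, Pdcd1, the gene for the inhibitory receptor PD-1, fell without Trem2, from an nRPKM of 42.2 ± 17.2 to 16.5 ± 5.45 (edgeR, log2 fold change -1.36, SE 0.27, adjusted p = 0.014). The odorant receptor gene Olfr110 was at 2.43 ± 0.474 and 2.47 ± 0.528. In the 7 PS2APP;Trem2wt mice alone the r of these 5 genes lay between 0.82 and 0.96, but they were then number 108, 290, 258, 15 and 51 in the order of all genes, so the leading 5 were others.

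Genes of disease-associated microglia, the state that microglia take on around plaques, were the list looked at next. In this list 10 of 20 genes fell between genotypes with edgeR and with voom+limma, and DESeq2 called 12 lower. Over all 17086 genes edgeR called 1.53% lower, voom+limma called 325 lower and DESeq2 called 526 lower. The list was written with earlier results of these data known, so nothing is read from its counts. Apart from genotype, their r with Baiap2l2 over 13 mice had a median of 0.50 and was positive for 20 of 20, from 0.07 for Fth1, which encodes ferritin heavy chain, to 0.80 for Clec7a, which encodes dectin-1. Cst7, a cathepsin inhibitor gene, had 0.78 and Lpl, the lipoprotein lipase gene, had 0.76. The 116 other genes that were called lower with at least a 2-fold change had a median r of 0.38, and whether the list differs from them was not tested. These values leaned on PS2APP;Trem2wt mouse 3, which was highest in Baiap2l2. Without this mouse the median was 0.12, with 15 of 20 positive, and r was 0.68 for Clec7a, 0.66 for Cst7 and 0.66 for Lpl. By genotype the median was 0.84 in 7 PS2APP;Trem2wt mice, 0.56 in the same group without mouse 3, and 0.06 in 6 PS2APP;Trem2ko mice. The genes of the list share the same libraries and vary together, so their values of r are not independent of each other.

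**Figure D5:**
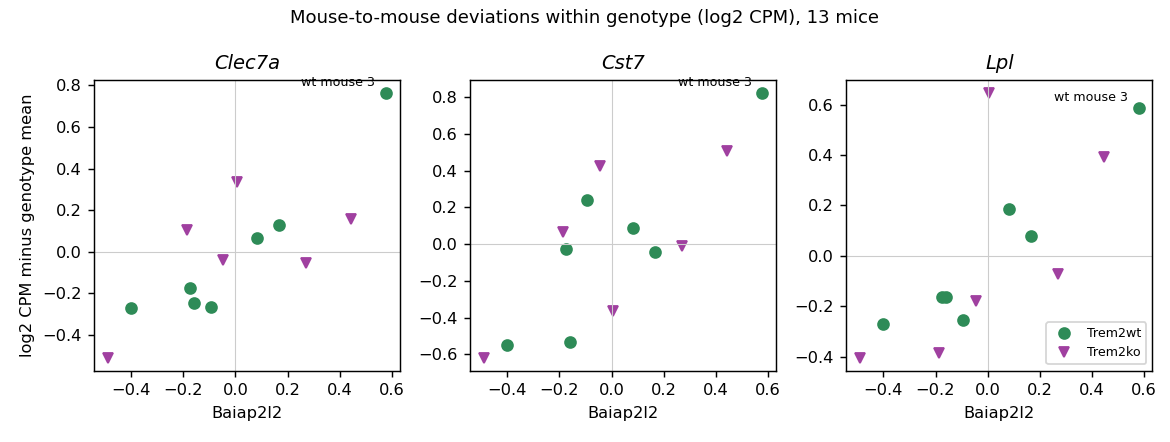
Deviation of log2 CPM from the mean of its genotype for Baiap2l2 (horizontal) against Clec7a, Cst7 and Lpl (vertical), with 1 point per mouse, green circles for 7 PS2APP;Trem2wt and purple triangles for 6 PS2APP;Trem2ko mice. The genes shown have the highest r of the 20 disease-associated genes. PS2APP;Trem2wt mouse 3 lies at the upper right in all panels, and r falls from 0.80 to 0.68 for Clec7a when it is left out. Over the 20 genes the median r falls from 0.50 to 0.12 without this mouse, and it is 0.06 in the 6 PS2APP;Trem2ko mice alone.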

How the data were processed

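RNA-Seq data of myeloid cells sorted from 13 mice were used. The authors prepared libraries with SMART-seq v4, aligned single-end reads of 50 bases to GRCm38 with GSNAP, and deposited for each gene and mouse the count of uniquely aligned reads, without normalization, and the nRPKM, an RPKM adjusted by a size factor. Whether counting used strand is not given in the sources used here. The members and the gene lists were chosen with earlier results of these data known.

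Counts were compared with edgeR 4.0.16 (TMM scaling, filterByExpr by genotype, glmQLFit and glmQLFTest with no covariate, R 4.3.3), which kept 17086 genes, with Benjamini-Hochberg adjustment over all of them. Each SE is the absolute log2 fold change over the root of its F statistic. Sex was tested with genotype in the model. Levels of different genes were compared on deposited nRPKM only. A floor of 3 counts covers counting error only. In simulated data on 16733 genes, edgeR recovered 61.7% of 2-fold and 88.7% of 4-fold changes between genotypes and called 11 unchanged genes. On the same data voom+limma recovered 59.6% and 85.6% and called 12 unchanged genes. DESeq2 recovered 67% and 93.8% and called 43. Named genes are the members, Mtss2, the tested genes within 100 kb (at most 6 per gene), the called genes of each list or else the 2 of highest level, the 5 genes most like Baiap2l2, and the highest and lowest r of the disease-associated list. Others, named after their values were seen, are Cst7, Lpl and the epithelial markers. Alternatives were voom+limma (limma 3.58.1, the tool of the study), DESeq2 1.42.0, females alone, sex in the model, RLE scaling, a filter of 10 counts in 6 mice or none, limma on log2(nRPKM) with 0.1 or 1 added, and leaving out each mouse. Correlations without PS2APP;Trem2wt mouse 3 and within each genotype, and the words GGGCGG and TATAAA, were added after the data were seen. The planned alignment of the proteins was not run, and the genes of 1 list are not reported here. Mouse numbers are names in deposition order.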

Additional observations from a re-analysis of the deposited data

Results flagged for a closer look

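Baiap2l1 in PS2APP;Trem2wt mouse 1, at an nRPKM of 4.67, stood apart from the other 6 mice of its group by more than the critical gap of Dixon's test, which applies to groups of this size. It was the only one of 10 combinations of I-BAR gene and genotype to do so, and chance flags about 1 in 20. The same mouse was not at an extreme of Baiap2l2, where its nRPKM was 5.05. Within its group it was the lowest in Baiap2, at 1.26, and the highest in Mtss1, at 3.64.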

How the results depend on the processing

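Baiap2l2 kept its direction in all 9 alternatives and all 13 fits that left out a mouse. Such an outcome was fixed in advance, because Baiap2l2 was known to be low without Trem2 and its genotypes did not overlap. Its log2 fold change between genotypes lay between -2.08 and -1.86 when a mouse was left out, and it was -1.43 with limma on log2(nRPKM + 1), where the added constant shrinks differences of low genes. The ranges without a mouse were 0.33 to 0.50 for Baiap2, 0.50 to 0.81 for Baiap2l1 and -0.10 to 0.10 for Mtss1. The sex difference ranged from 0.23 to 0.37 for Baiap2 and from -0.58 to -0.25 for Baiap2l1, and it changed sign for Baiap2l2 (-0.02 to 0.15, negative without PS2APP;Trem2wt mouse 3) and for Mtss1 (-0.20 to 0.06, positive without PS2APP;Trem2wt mouse 2, at 0.03, or 3, at 0.06). None of these sex differences passed the test. Of the 7 genes called lower in the actin and BAR lists, 4 were called in females only (Pacsin1, Gas7, Actr3b and Snx18), and the count was 4 to 5 when a mouse was left out. Against 0 called higher, DESeq2 called 3 (Arhgap45, Sh3gl1 and Snx7), and 0 to 1 were called when a mouse was left out. Over all genes, 262 were called lower and 86 higher, against 526 and 325 with DESeq2, 173 and 79 in females only, and 222 and 53 with no filter. The causes were not tested. No paired analysis was possible because the labels do not tell which mice were handled together, although the study's methods say that a mouse of each genotype was generally taken through perfusion and sorting side by side. SE and adjusted p are therefore unpaired.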
